A study of Mus musculus with 2 samples.

Results

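The 10 genes described here are Dct, Tyrp1, Tyr, Pmel, Mlana, Oca2, Slc45a2, Mitf, Sox10 and Kit, the genes of melanin synthesis and of melanocyte identity. They were chosen by symbol, and each matched 1 of the 27998 genes listed for both libraries. The libraries are single-cell RNA sequencing of dorsal epidermis from 2 male Chrm3 KO mice of the C57BL/6J strain at postnatal day 0, with 1 library per mouse. Every cell analysed here carries the KO of the M3 muscarinic acetylcholine receptor in the whole animal, and WT libraries were not analysed here, so no value is an effect of the genotype. Epidermis was separated from dermis, passed through a filter and depleted of dead cells before capture, and no cell type was sorted. The questions put to these genes were how they are expressed within the melanocytes of newborn epidermis and at what level their transcripts are counted in the other epidermal cell types.

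Melanocytes are pigment cells of neural crest origin that settle in the epidermis and in hair follicles. They make melanin inside melanosomes, organelles with a fibrillar matrix on which the pigment is laid down, and hand melanosomes over to neighbouring KCs. The transcription factor MITF drives many genes of pigment synthesis, SOX10 acts upstream of it, and KIT is the receptor through which KC-derived KIT ligand keeps melanocytes alive and guides them.

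The E-box hexamer CATGTG, read as CACATG on the other strand, is the core of the element that MITF is known to bind in pigment gene promoters. RefSeq start sites with an upstream window were given for 6 of the 10 genes, with 9 windows in all, and 250 bases before each start were searched on both strands in GRCm38.p6. CATGTG or CACATG was found in the windows of 4 genes, Dct, Tyrp1, Tyr and Oca2, and in 12.3% of the 32851 windows of the same length over all genes. Neither the 3 windows of Mitf nor the 2 windows of Kit held these letters, and the related palindrome CACGTG was in 0 of the 9 windows, against 6.02% of all windows. Only the 4 windows with a match are shown. Dct, Tyrp1, Tyr and Oca2 differ in level between the melanocyte clusters below, but so do Mitf and Kit, whose windows held no match. Dct, Tyrp1 and Tyr also served to pick a cluster there. Each is written in the direction of transcription and the capitals mark the hexamers. The Dct window lies at chr14:118052247-118052496 on the minus strand, with hexamers that begin 232 and 150 bases before the start. The Tyrp1 window is chr4:80833963-80834212 on the plus strand, with a hexamer 46 bases before this RefSeq start. The GENCODE position given below begins at 80834123, so by that annotation the hexamer lies inside the gene. Windows of Kit and Mitf also overlap their GENCODE positions. Tyr has its window at chr7:87493513-87493762 on the minus strand, with a hexamer 21 bases before the start, and Oca2 at chr7:56239509-56239758 on the plus strand, with a hexamer 186 bases before the start. A match describes the letters only. Pmel, Mlana, Sox10 and Slc45a2 are named without a window.
Dct: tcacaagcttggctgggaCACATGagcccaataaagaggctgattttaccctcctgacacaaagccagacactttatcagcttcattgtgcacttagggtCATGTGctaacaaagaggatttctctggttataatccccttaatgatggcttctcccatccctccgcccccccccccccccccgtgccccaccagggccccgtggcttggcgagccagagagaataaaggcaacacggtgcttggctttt
Tyrp1: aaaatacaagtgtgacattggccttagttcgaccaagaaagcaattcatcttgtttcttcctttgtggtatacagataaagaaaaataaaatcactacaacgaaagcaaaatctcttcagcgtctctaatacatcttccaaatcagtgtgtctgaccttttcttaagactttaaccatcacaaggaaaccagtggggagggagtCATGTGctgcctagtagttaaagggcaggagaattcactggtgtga
Tyr: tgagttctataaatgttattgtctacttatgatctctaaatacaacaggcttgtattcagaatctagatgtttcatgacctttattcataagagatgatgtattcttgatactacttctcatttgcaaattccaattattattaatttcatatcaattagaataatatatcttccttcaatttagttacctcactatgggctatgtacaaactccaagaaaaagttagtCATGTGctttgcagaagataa
Oca2: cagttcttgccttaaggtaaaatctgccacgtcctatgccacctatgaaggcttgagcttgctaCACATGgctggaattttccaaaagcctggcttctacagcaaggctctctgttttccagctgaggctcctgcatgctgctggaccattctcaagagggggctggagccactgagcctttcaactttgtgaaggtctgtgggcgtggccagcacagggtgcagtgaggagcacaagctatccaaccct

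The libraries held 109756784 and 166441732 unique molecular identifier (UMI) counts in 10816 and 15867 barcodes, of which 7607 and 11881 passed the limits on genes and mitochondrial counts, with a median of 10480 and 10577 UMIs per kept cell. Chrm3, the targeted gene, had 13 and 19 UMIs in the kept cells of mouse 1 and mouse 2, or 0.137 and 0.128 counts per 1000000 UMIs (CPM), and without WT libraries this level has no reference here. The libraries shared 127 cell barcode sequences among all their barcodes, and 2 of these belonged to kept melanocyte-like cells in each mouse. The kept cells formed 23 clusters, and 3 of these were named melanocyte-like from markers that exclude the 10 genes, which were also kept out of the variable genes. The melanocyte-like cells numbered 437 in mouse 1 (5.74%, exact 95% binomial interval 5.23 to 6.29) and 725 in mouse 2 (6.1%, 5.68 to 6.55). In these cells all 8 mast cell markers were at 0 UMIs, where 3 UMIs would give 0.648 and 0.369 CPM. In all other cells they were at 0 too, except Gata2 at 0.0111 and 0.00711 CPM. Their absence therefore does not set the melanocyte-like cells apart from the other cells. The 12 Langerhans cell markers summed to 8.65 and 8.12 CPM, against 527 and 393 CPM in all other cells. Of the Schwann cell markers, Fabp7 (99 and 81.5 CPM) and Cdh19 (11.9 and 9.71 CPM) were present. Keratin RNA was present too, with Krt14 at 856 and 1205 CPM against 5928 and 6819 CPM in all other cells.

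All 10 genes were counted mainly in melanocyte-like cells, at levels that differed widely from gene to gene. The counts are of transcript 3' ends and carry no length factor, so levels of different genes were set side by side as CPM. Dct (chr14:118012790-118052244, minus strand, all positions from GENCODE M21 on GRCm38) encodes dopachrome tautomerase, an enzyme of the eumelanin branch, and was the highest with 3950 CPM in mouse 1 and 4716 CPM in mouse 2. Pmel (chr10:128704195-128720238, plus strand), which encodes the protein of the melanosome fibrils, followed with 3533 and 3735 CPM. Mlana (chr19:29697824-29708634, plus strand), a melanosome membrane gene, was at 1161 and 1229 CPM. Those structural and enzyme genes stood above every other member in both mice.

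The remaining enzymes and ion or solute carriers were lower. Tyr (chr7:87424771-87493512, minus strand), which encodes tyrosinase, the rate-limiting enzyme of melanin synthesis, was at 315 and 327 CPM. Slc45a2 (chr15:11000721-11029233, plus strand), a melanosomal transporter, was at 256 and 276 CPM. Tyrp1 (chr4:80834123-80851719, plus strand), the tyrosinase-related enzyme of late eumelanin synthesis, was at 137 and 231 CPM. Oca2 (chr7:56239760-56536518, plus strand), which encodes the P protein of the melanosome membrane, was the lowest of all with 24.6 and 35.5 CPM. Tyrp1 and Oca2 had the largest ratios between the mice, with exact 95% Poisson intervals of 127 to 148 and 221 to 242 CPM for Tyrp1 and of 20.3 to 29.6 and 31.6 to 39.9 CPM for Oca2. The intervals of the 2 mice were also apart for Dct, Pmel, Mlana and Sox10, always with mouse 2 higher, and overlapped for Tyr, Slc45a2, Mitf and Kit. They cover counting error only.

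Among the regulators, Kit (chr5:75574916-75656722, plus strand) was at 413 and 432 CPM, and only Dct, Pmel and Mlana were above it in both mice. Mitf (chr6:97807052-98021349, plus strand) was at 176 and 171 CPM and Sox10 (chr15:79154908-79165240, minus strand) at 113 and 134 CPM. The order of the levels was otherwise the same in both mice except that Mitf was above Tyrp1 in mouse 1 and below it in mouse 2.

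**Figure D1:**
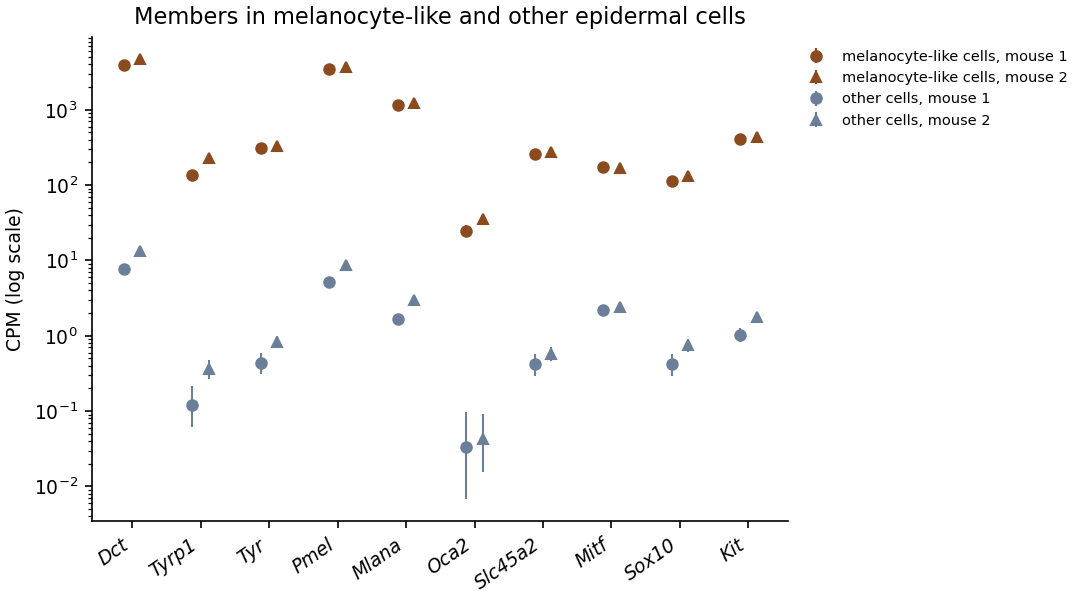
CPM of each of the 10 genes on a log scale in melanocyte-like cells and in all other kept cells, with 1 point per mouse and bars that give the exact 95% Poisson interval. The points of the melanocyte-like cells lie between 24.6 and 4716 CPM, and every one is above the points of the other cells for the same gene, which reach at most 13.2 CPM.

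Compared on the same scale, Dct was at 7.7 and 13.2 CPM in all other cells, Pmel at 5.16 and 8.8 CPM and Mitf at 2.18 and 2.42 CPM. The ratio of melanocyte-like to other cells was 513 and 358 for Dct, 684 and 424 for Pmel, 700 and 417 for Mlana, 730 and 393 for Tyr and 1126 and 637 for Tyrp1. It was 610 and 479 for Slc45a2, 406 and 243 for Kit and 268 and 179 for Sox10. Mitf stood apart with ratios of only 80.7 and 70.8. Oca2 had 3 and 6 UMIs in all other cells together, against 114 and 289 in melanocyte-like cells. In all, 96.4% and 95.4% of the UMIs of the 10 genes were in melanocyte-like cells. By gene the share was lowest for Mitf with 80.5% and 80.4%, followed by Sox10 with 93.2% and 91.2% and Kit with 95.4% and 93.4%. No test was made of these ratios, since the clusters were formed from the same cells. All 10 genes were over 2-fold higher in melanocyte-like cells in both mice, as were 11.8% of the 8434 genes with at least 100 UMIs in these cells.

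Single cells carried these genes in combination. After each cell was thinned to 3000 UMIs, a Dct UMI was present in 99.5% and 98.7% of melanocyte-like cells, a Pmel UMI in 93.6% and 93.7%, a Kit UMI in 70% and 70.6% and a Mitf UMI in 37.7% and 39.8%. Without thinning the shares for Mitf were 72.3% and 75.6%, and those for Dct 100% and 99.4%. Tyrp1 was present in 20.8% and 26.3% and Oca2 in 3.07% and 5.32% of thinned cells, a minority of cells at this depth. In other cells the thinned shares were 2% and 2.38% for Dct, 1.49% and 1.81% for Pmel and 0.747% and 0.786% for Mitf. Their median depth before thinning was 10539 and 10642 UMIs, against 8786 and 9663 UMIs for melanocyte-like cells. The median melanocyte-like cell held UMIs of 6 of the 10 genes in both mice. At least 3 of the genes were present in 98.1% and 98.6% of thinned melanocyte-like cells and in 0.127% and 0.228% of thinned other cells.

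The melanocyte-like cells fell into 3 clusters. The largest cluster held 307 and 496 cells. A cluster with most of the cells scored as G2/M held 104 and 176 cells and is called the dividing cluster. The remaining cluster, of 26 and 53 cells, had the highest summed level of Dct, Tyrp1, Tyr, Pmel and Mlana and is called pigment-high. It was picked by that level, so its pigment genes are given as a description with no test.

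In the pigment-high cluster Dct stood at 8985 and 10851 CPM against 4026 and 4737 CPM in the largest cluster, and Pmel at 10200 and 10035 CPM against 3294 and 3548 CPM. Tyrp1 showed a wider gap, with 733 and 1088 CPM against 83.8 and 166 CPM, or 8.75-fold and 6.54-fold. For Oca2 the gap was wider still, with 209 and 226 CPM against 3.66 and 16 CPM, although the largest cluster had only 9 Oca2 UMIs in mouse 1. Tyr was 2.64-fold and 2.72-fold higher, Mlana 3.57-fold and 3.03-fold and Slc45a2 2.52-fold and 2.74-fold. The pigment enzymes and carriers were thus all more than 2-fold higher in both mice.

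The regulators were less than 2-fold apart between these clusters. Mitf was at 282 and 318 CPM in the pigment-high cluster and at 184 and 175 CPM in the largest, ratios of 1.53 and 1.82. Sox10 was lower in the pigment-high cluster of both mice, with 99.1 and 136 CPM against 139 and 160 CPM. Kit was lower as well, with 362 and 326 CPM against 496 and 532 CPM, ratios of 0.731 and 0.612. In all, 7 of the 10 genes were over 2-fold higher in both mice, as were 1.99% of the 8434 genes with at least 100 UMIs in melanocyte-like cells. Nothing is read from that count, because the pigment genes chose the cluster.

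**Figure D2:**
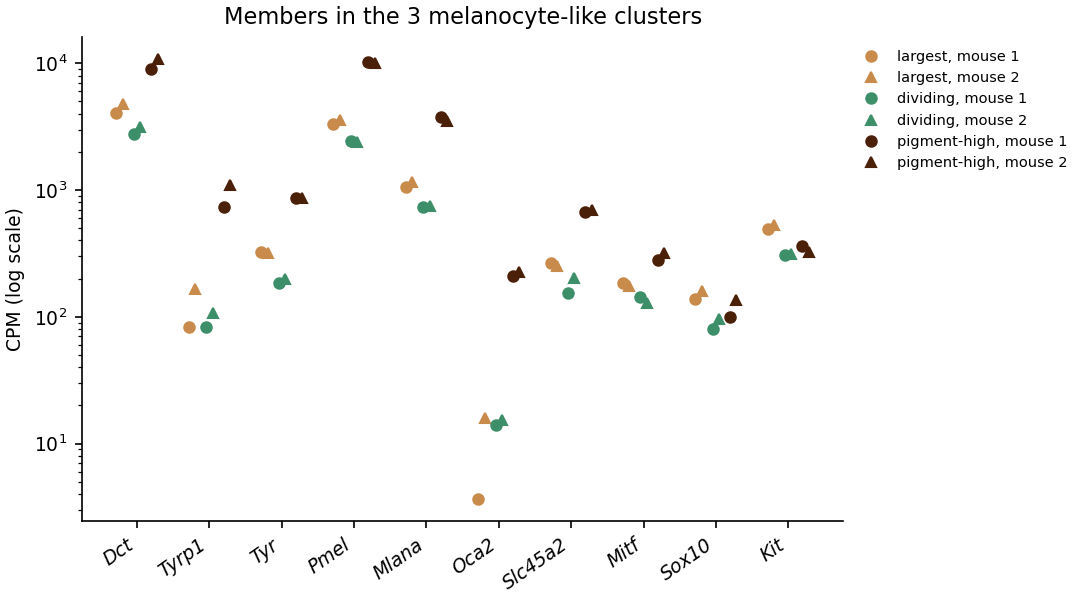
CPM of the 10 genes on a log scale in the largest, dividing and pigment-high melanocyte-like clusters, with 1 point per mouse and cluster. The pigment-high points lie above the others for the 7 pigment genes and for Mitf, and below those of the largest cluster for Sox10 and Kit.

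Other genes of the pathway were compared between the same clusters. Of 19 genes of melanosome transport and ion balance, 9 were over 2-fold higher in the pigment-high cluster of both mice, among them Trpm1, which encodes a cation channel of melanocytes and is a known MITF target (14.6-fold and 10.5-fold), Gpr143, a melanosomal receptor (6.8-fold and 6.03-fold), and Rab27a, which tethers melanosomes for transport (3.83-fold and 3.87-fold). Of the 19 genes 1 was lower in both mice, and 9 had served as naming markers. Of 12 receptors and regulators, 3 were over 2-fold higher in both mice, namely Met, the receptor of hepatocyte growth factor (9.47-fold and 7.99-fold), Ednrb, the endothelin receptor of melanocytes (3.46-fold and 2.97-fold), and Mc1r, the melanocortin receptor (2.37-fold and 2.2-fold). In all 6 of the 12 were higher and 4 lower in both mice. Of 8434 genes with at least 100 UMIs in melanocyte-like cells, 2417 were higher and 3326 lower in both mice. Over 2-fold higher were 1.99% of them. The cluster was picked by its pigment level, so these counts are descriptions. The neuregulin receptor gene Erbb3 was lower, with ratios of 0.238 and 0.32, and Zeb2, a transcription factor of the melanocyte lineage, had ratios of 0.396 and 0.688. The 5 proliferation genes were lower in both mice with the exception of Ccnb1, which had ratios of 3.04 and 0.867 on few counts.

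The clusters also differed in signs of mixed cells. Scrublet called 43.6% of the 280 cells of the dividing cluster doublets, against 0.249% of the 803 cells of the largest cluster and 2.53% of the 79 cells of the pigment-high cluster. In the dividing cluster 42.3% and 58% of cells held 10 or more UMIs of the basal keratins Krt14 and Krt5, and Krt14 was at 1884 and 2694 CPM. In that cluster Dct was at 2765 and 3124 CPM, Sox10 at 79.5 and 95.7 CPM and Kit at 309 and 313 CPM, all below the largest cluster. The part of the keratin-bearing cells in these lower values was not tested.

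Within the largest cluster, Dct and Pmel varied together from cell to cell, with a Spearman correlation of 0.424 over 296 cells of mouse 1 and 0.523 over 486 cells of mouse 2, on counts thinned to 3000 UMIs. Pmel and Mlana gave 0.297 and 0.361. Dct with Tyr gave 0.0624 and 0.0644, and Mitf with Pmel gave 0.0268 and -0.0281. Cells of 1 library share their depth and free RNA, and low counts flatten such correlations, so these are descriptions only.

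The comparison of cell cycle phases asked whether the 10 genes differ between melanocyte-like cells scored in different phases. Phases were scored from Seurat's S and G2/M gene lists, which hold none of the 10 genes, and UMIs were summed per mouse and phase. The G1 sums held 285 and 486 cells, the S sums 74 and 128 cells and the G2/M sums 78 and 111 cells. Median depth moved with the phases, from 7379 and 8278 UMIs per G1 cell to 13756 and 12301 in S and 14223 and 16421 in G2/M. All 10 genes were lower in S than in G1 and lower in G2/M than in G1 in both mice. With edgeR's quasi-likelihood test and Benjamini-Hochberg adjustment over 9591 genes, 7 of the 10 passed an adjusted p of 0.05 in each contrast, all of them lower. Over all genes tested, 2.65% were called lower and 6.93% higher in S, and 4.9% lower and 9.08% higher in G2/M. The median log2 fold change of the 10 genes was -0.481 in S and -0.518 in G2/M, against -0.00942 and -0.0036 for all genes. DESeq2 called 5 of the 10 genes in S and 3 in G2/M, and edgeR called 7 and 5 with Scrublet doublets removed.

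Dct, Pmel, Tyr and Mlana were lower in both phases. Dct went from 4657 and 5400 normalized CPM in G1 to 3036 and 4322 in S and to 3464 and 3802 in G2/M. Its log2 fold change was -0.45 (SE 0.126, adjusted p = 0.0363) in S and -0.47 (SE 0.126, adjusted p = 0.0213) in G2/M. Pmel changed by -0.39 (adjusted p = 0.00543) and -0.49 (adjusted p = 0.000526). In G2/M Tyr stood at 229 and 235 normalized CPM against 380 and 382 in G1, and Mlana at 886 and 867 against 1441 and 1452. Their log2 fold changes in G2/M were -0.72 each, with adjusted p = 0.00013 for Tyr and 0.000196 for Mlana. In S they were -0.39 (adjusted p = 0.0213) and -0.51 (adjusted p = 0.00536).

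The carriers and Tyrp1 passed in 1 phase or in none. Oca2 went from 32.9 and 48.1 normalized CPM in G1 to 6.28 and 22.2 in S, a log2 fold change of -1.41 (SE 0.329, adjusted p = 0.0136). In G2/M its value was -0.89 (adjusted p = 0.0652). Slc45a2 was lower in G2/M (-0.46, adjusted p = 0.0111), with -0.32 (adjusted p = 0.0948) in S. Tyrp1 passed in neither phase, with -0.55 (SE 0.268, adjusted p = 0.245) in S and -0.82 (SE 0.273, adjusted p = 0.061) in G2/M. Each mouse gave 1 sum per phase, and with the mouse as a block Tyrp1 passed in both phases (adjusted p = 0.0191 and 0.00155), as did Slc45a2 in S (adjusted p = 0.0253) and Oca2 in G2/M (adjusted p = 0.0365).

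Of the regulators, Sox10 fell in both phases. It was at 145 and 158 normalized CPM in G1, at 67.3 and 105 in S and at 93.6 and 113 in G2/M, log2 fold changes of -0.79 (SE 0.161, adjusted p = 0.00563) and -0.55 (SE 0.156, adjusted p = 0.029). Mitf fell in S from 210 and 194 to 115 and 145 normalized CPM, a log2 fold change of -0.61 (SE 0.123, adjusted p = 0.00497), and had a value of -0.32 (adjusted p = 0.0922) in G2/M. Kit showed the converse, with -0.25 (adjusted p = 0.18) in S and -0.43 (SE 0.108, adjusted p = 0.0148) in G2/M. Whether S and G2/M differ from each other was not tested.

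Most of these calls depended on the pigment-high cluster, of whose 79 cells 74 were in G1. In a fit added after seeing the data, without that cluster, 2 genes were called lower in S, Mitf (-0.51, adjusted p = 0.0205) and Sox10 (-0.83, adjusted p = 0.00328). Dct then stood at -0.21, Tyr at -0.06, Mlana at -0.07 and Oca2 at -0.06, and Pmel at 0.02, Slc45a2 at 0.01 and Tyrp1 at 0.21. In G2/M without the cluster 3 genes were lower, Tyr (-0.36, adjusted p = 0.0226), Sox10 (-0.59, adjusted p = 0.0178) and Kit (-0.50, adjusted p = 0.00574). The background in these fits was 2.84% lower in S and 4.88% lower in G2/M. Because the cluster was picked for its pigment level, leaving it out lowers the pigment genes in G1 by construction. Oca2, Slc45a2 and Mitf were not used to pick it but were higher in it than in the largest cluster, so they are lowered in G1 too. Sox10 and Kit were not used either and were lower in it than in the largest cluster.

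The share of keratin-bearing cells also moved with the phases, as depth did. Cells with 10 or more Krt14 and Krt5 UMIs made up 7.02% and 12.6% of G1 cells, 16.2% and 15.6% of S cells and 23.1% and 37.8% of G2/M cells. The Krt14 level itself was at 775 and 1367 CPM in G1, 924 and 709 CPM in S and 953 and 1272 CPM in G2/M, with no common direction in the mice. Without them 7 genes were called in S and 4 in G2/M, against 4.2% and 3.83% of all genes called lower. In G2/M Dct (-0.29, adjusted p = 0.153), Sox10 (-0.39, adjusted p = 0.14), Kit (-0.19, adjusted p = 0.242) and Slc45a2 (-0.33, adjusted p = 0.0792) no longer passed and Oca2 did (-1.21, adjusted p = 0.0192). With those cells and the pigment-high cluster both left out, Mitf (-0.54, adjusted p = 0.00749) and Sox10 (-0.84, adjusted p = 0.00156) were still lower in S, and in G2/M Tyr alone was (-0.36, adjusted p = 0.0287), against 4.22% and 4.44% of all genes called lower.

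**Figure D3:**
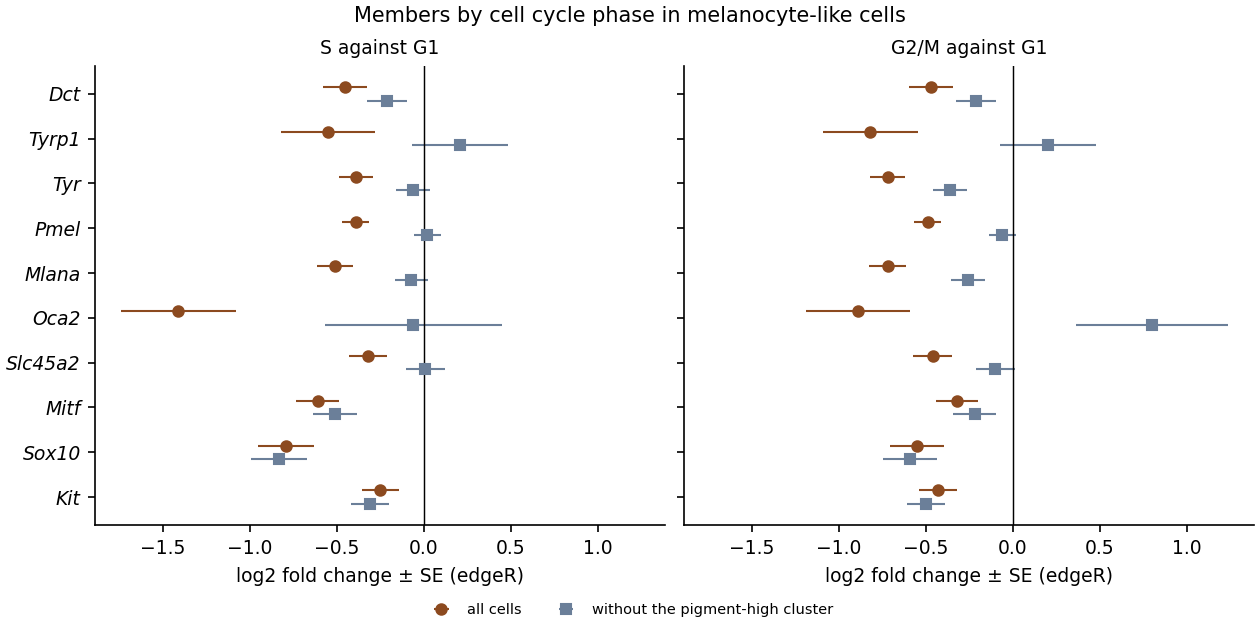
Log2 fold change with its SE from edgeR for the 10 genes in S against G1 and in G2/M against G1, with all melanocyte-like cells and without the pigment-high cluster. With all cells every gene lies below 0 in both panels, while without the cluster the pigment genes lie near 0 in S and Mitf and Sox10 stay at -0.51 and -0.83.

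The other lists are given beside the 2.65% and 4.9% of all genes called lower in S and G2/M and the 6.93% and 9.08% called higher. Of the 19 melanosome genes, 6 were lower in S and 8 in G2/M. Trpm1 fell by 1.15 on the log2 scale in S (adjusted p = 0.000282) and by 0.68 in G2/M (adjusted p = 0.00995), and Cd63, a tetraspanin of the melanosome, fell by 0.49 and 0.77. Without the pigment-high cluster Trpm1 turned to 0.88 in G2/M (adjusted p = 0.00101), whereas Cd63 remained lower in both phases (-0.33 and -0.60, adjusted p = 0.0174 and 8.5e-05). Of the 12 receptors and regulators, 4 were lower in S, including Met (-1.02) and Pax3 (-0.49), and 5 were lower in G2/M. There Sox9 was higher (1.45, adjusted p = 0.00152), a gene at 111 and 86.6 CPM in all other cells. Among melanocyte-like cells Sox9 was at 4.07 and 4.12 CPM in the largest cluster and at 38.1 and 43.7 CPM in the dividing one. The source of its counts was not tested. Pax3, Zeb2 and Erbb3 were lower in both phases without the pigment-high cluster, Zeb2 by 0.61 and 0.96. Of the ligands only Kitl and Edn1 passed the filter, and both were higher in S and G2/M, at 1.98 and 2.49 in G2/M. Neither reached the filter once keratin-bearing cells were left out. The proliferation list rose in 5 of 5 genes in S and 4 of 5 in G2/M, but Mki67, Top2a and Pcna are themselves among the genes that set the phases.

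Outside the melanocyte-like clusters the 5 pigment genes Dct, Tyrp1, Tyr, Pmel and Mlana were absent from most cells. Of 18326 other cells, 87.1% held 0 UMIs of these genes, 10.4% held 1 and 55 cells (0.3%) held 10 or more. Those 55 cells, 12 in mouse 1 and 43 in mouse 2, carried 19.3% of the pigment UMIs outside the melanocyte-like clusters in mouse 1 and 46.7% in mouse 2. Their median depth was 19256 UMIs against 10591 in the remaining cells, and Scrublet called 23.6% of them doublets against 2.87%. Free RNA, doublets and expression in the cell itself cannot be told apart from the counts of a single cell.

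By cell class Dct ranged from 0 to 12 CPM in mouse 1 and from 0 to 30.5 CPM in mouse 2. It was at 12 and 15 CPM in hair follicle-like KCs, at 3.05 and 8.29 CPM in basal interfollicular epidermis (IFE)-like KCs and at 10.7 and 30.5 CPM in suprabasal IFE-like KCs. Langerhans cell-like cells had 1.9 CPM in mouse 1 and 29.8 CPM in mouse 2, where 2 of 193 cells held 74% of the pigment UMIs of the class. In mouse 1 no Langerhans cell-like cell held more than 2. In the 36 Merkel-like cells Dct was at 0 UMIs in both mice, which allows up to 26 and 19.1 CPM. The classes therefore overlapped between the mice for Dct, and the order of suprabasal and hair follicle-like KCs differed between them. In 4981 cells the markers gave no name, and Dct was at 6.22 and 6.81 CPM there.

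**Figure D4:**
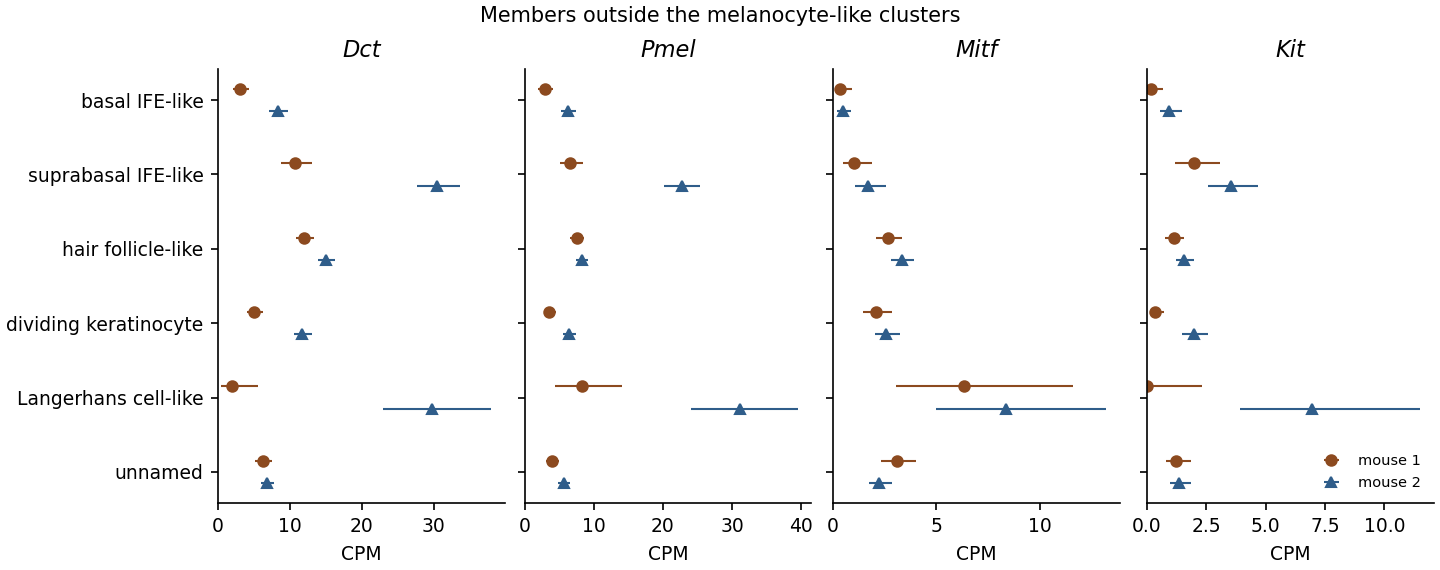
CPM of 4 of the genes by cell class outside the melanocyte-like clusters, with 1 point per mouse and bars that give the exact 95% Poisson interval. Dct is at 12 and 15 CPM in hair follicle-like KCs and at 3.05 and 8.29 CPM in basal IFE-like KCs, while Mitf is at 2.66 and 3.32 CPM against 0.37 and 0.469 CPM.

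Tests between KC classes asked whether any of the 10 genes differed by class outside melanocytes. UMIs were summed per mouse over basal IFE-like, suprabasal IFE-like and hair follicle-like KCs, and 8 of the 10 genes passed the filter, all but Tyrp1 and Oca2. Mitf was the only one called between hair follicle-like and basal IFE-like KCs in the main fit, which had no term for the mouse. It was at 0.38 and 0.486 normalized CPM in basal and at 2.32 and 2.97 in hair follicle-like KCs, without overlap between the classes. The log2 fold change was 2.56 (SE 0.36, adjusted p = 0.000923, edgeR over 12831 genes), and the within-mouse values were 2.85 and 2.82. In this contrast 25.5% of all genes were called higher, in part because the classes were formed from those genes. All 5 proliferation genes were called higher too (median log2 fold change 3.45), so these classes also differ in cell cycle. Without normalization Mitf was at 2.66 and 3.32 CPM in hair follicle-like KCs, 2.07 and 2.58 CPM in dividing KCs and 3.08 and 2.25 CPM in cells without a name. The level is thus not particular to hair follicle-like KCs, and the part of the cell cycle in this difference was not tested. Mitf was called in each of the 7 alternatives with a test, with log2 fold changes from 2.47 to 2.70, and the highest of these came without KCs that held 10 or more pigment UMIs.

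The pigment genes did not pass in that contrast, with Dct at 0.95 (SE 0.513, adjusted p = 0.165), Pmel at 0.50 (adjusted p = 0.47) and Mlana at -0.01 (adjusted p = 0.988). With the mouse as a block Dct was called too (1.06, SE 0.263, adjusted p = 0.00634). Kit was at 0.84 (adjusted p = 0.242) and Sox10 at 0.56 (adjusted p = 0.428). Genes of the ligand list were tested in the same contrast. Kitl, which encodes the KIT ligand, was higher in hair follicle-like KCs (0.89, adjusted p = 0.00146), as were Edn1, the endothelin ligand of EDNRB (2.85, adjusted p = 1.52e-05), and Fgf2, a melanocyte growth factor (5.49, adjusted p = 8.22e-05). Of 8 ligands listed 7 were found by symbol and 3 could be tested. All 3 were higher, as were 25.5% of all genes. In suprabasal IFE-like KCs Kitl was lower than in basal KCs (-1.02, adjusted p = 0.00124), as were 22.2% of all genes.

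Between suprabasal and basal IFE-like KCs, 7 of the 8 genes tested were higher, against 23.9% of all genes. Dct was at 3.13 and 8.59 normalized CPM in basal and at 11.9 and 33.2 in suprabasal KCs, a log2 fold change of 1.89 (SE 0.528, adjusted p = 0.0217). Kit had the largest value (2.19, adjusted p = 0.0143), Sox10 was at 1.85 (adjusted p = 0.028), Mitf at 1.79 (adjusted p = 0.0131), Mlana at 1.75 (adjusted p = 0.0353), Pmel at 1.73 (adjusted p = 0.0327) and Slc45a2 at 1.40 (adjusted p = 0.0374). Tyr did not pass (0.98, adjusted p = 0.354). This rise rested on few cells. In suprabasal KCs 3 of 536 cells of mouse 1 and 10 of 753 cells of mouse 2 had 10 or more pigment UMIs and held 58.9% and 86.4% of the pigment UMIs of the class, and 1 cell of mouse 2 alone held 360. Without KCs of that kind, in a fit added after seeing the data, 5 of the genes could be tested and 0 were called by edgeR, against 23.7% of all genes called higher. At an unadjusted p under 0.05 edgeR gave 1 gene, Mitf. Dct was then at -0.15, Pmel at -0.31, Mlana at -0.37, Mitf at 1.11 (adjusted p = 0.0812) and Kit at 0.91. Leaving out those cells lowers pigment counts by construction. Neither Mitf nor Kit was used to pick them, but both were counted mainly in melanocyte-like cells, as the pigment genes were. Their values are therefore not independent of that choice. DESeq2 was not run without those cells. With all KCs DESeq2 called 4 genes higher, and edgeR called 2, Dct and Kit, once Scrublet doublets were removed, with a median log2 fold change of 1.52 against 1.77.

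**Figure D5:**
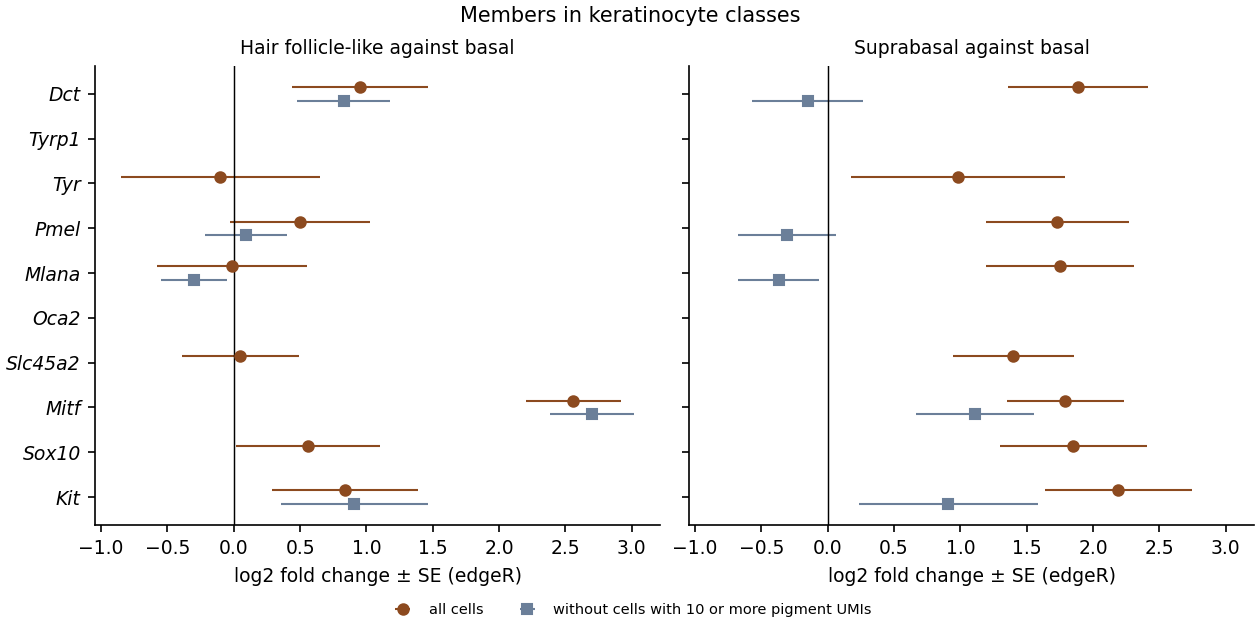
Log2 fold change with its SE from edgeR for the genes tested in hair follicle-like and in suprabasal IFE-like KCs against basal IFE-like KCs, with all KCs and without KCs that hold 10 or more pigment UMIs. Mitf stays at 2.56 and 2.70 in the hair follicle-like panel, while in the suprabasal panel Dct moves from 1.89 to -0.15.

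Within the suprabasal class, a small cornified cluster of 47 and 61 cells led by genes of the Lce1 family stood apart, with summed pigment genes at 188 and 265 CPM. Its cells held a median of 7805 UMIs, and 1 cell of mouse 1 and 3 of mouse 2 with 10 or more pigment UMIs held 30% and 86.5% of its pigment UMIs. Without this cluster the suprabasal contrast called 1 gene, Pmel (1.53, adjusted p = 0.0468), against 23.9% of all genes called higher, while the median log2 fold change of the genes tested went from 1.77 to 1.44.

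If the counts outside melanocyte-like cells came from melanocyte RNA alone, each gene would keep the ratio to the others that it has in melanocyte-like cells. The expected count of each gene was therefore set from the Pmel, Mlana and Tyr UMIs of the same cells, and this is a description that assumes melanocyte-like cells as a single source. Over all other cells Dct was at 1.35 (Poisson interval 1.25 to 1.45) and 1.18 (1.12 to 1.23) times its expectation. Kit was at 1.7 (1.37 to 2.09) and 1.73 (1.52 to 1.96) times and Sox10 at 2.57 (1.82 to 3.53) and 2.34 (1.92 to 2.84) times. Tyrp1 was at 0.613 (0.306 to 1.1) and 0.66 (0.492 to 0.868) times, below it in mouse 2 alone by its interval, while Slc45a2 at 1.13 (0.801 to 1.55) and 0.878 (0.697 to 1.09) and Oca2 at 0.93 (0.192 to 2.72) and 0.505 (0.185 to 1.1) times had intervals that included 1. Mitf was the farthest from it, with 197 and 340 UMIs where 23 and 57.2 were expected, or 8.55 (7.4 to 9.83) and 5.94 (5.33 to 6.61) times. The intervals are exact 95% intervals of the observed counts and leave out the error of the expectation. They also leave out that the melanocyte-like clusters differ in these ratios. Sox10 was at 139 and 160 CPM beside Pmel at 3294 and 3548 CPM in the largest cluster. In the pigment-high cluster it was at 99.1 and 136 CPM beside Pmel at 10200 and 10035 CPM. The multiples thus depend on which melanocyte-like cells are taken as the source.

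Mitf exceeded its expectation in several classes. In hair follicle-like KCs it was at 7.51 (5.92 to 9.41) and 8.81 (7.45 to 10.4) times, in dividing KCs at 10.6 (7.51 to 14.6) and 8.7 (6.81 to 11) times and in Langerhans cell-like cells, on 10 and 18 UMIs, at 19 (9.1 to 34.9) and 6.55 (3.88 to 10.4) times. A cluster of 435 and 565 cells without a name was led by Ncam1, Bdnf and Sema3e. It had 26 Mitf UMIs in each mouse, or 7.94 and 5.81 CPM, where 0.421 and 1.13 UMIs were expected. This was 61.7 (40.3 to 90.4) and 23 (15 to 33.7) times the expectation, which rested on only 12 and 35 UMIs of Pmel, Mlana and Tyr. Sox10 was at 0 UMIs there, with 0.27 and 0.886 expected. Kit had 10 and 5 UMIs, at 10.1 (4.85 to 18.6) and 1.75 (0.568 to 4.08) times. Dct was at 2.85 (1.88 to 4.15) and 0.705 (0.442 to 1.07) times. In basal IFE-like KCs, in contrast, Mitf had 4 and 9 UMIs and its intervals included 1 (0.597 to 5.61 and 0.711 to 2.95). Dct was above expectation in hair follicle-like KCs of both mice, at 1.51 (1.36 to 1.68) and 1.44 (1.34 to 1.56) times. For basal KCs as a class its intervals included 1, at 0.805 (0.554 to 1.13) and 0.996 (0.847 to 1.16) times. In mouse 1 the basal clusters lay on either side, at 1.52 (1.03 to 2.17) and 0.141 (0.029 to 0.412) times on 30 and 3 UMIs. Suprabasal KCs (1.43) and cells without a name (1.46) were above expectation in mouse 1, and dividing KCs (1.44) in mouse 2. Their intervals in the other mouse included 1. Kit was seen on few counts in T cell-like cells (4 and 2 UMIs) and in Merkel-like cells (6 and 1 UMIs).

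Genes outside the 10 with the closest pattern were ranked by Pearson correlation of log2(CPM + 10) with the summed level of Dct, Tyrp1, Tyr, Pmel and Mlana over 46 sums per mouse and cluster, among 13479 genes. Ptgds, which encodes the lipocalin-type prostaglandin D synthase, led with 0.991, followed by Npy, a neuropeptide gene (0.981), Bace2, a protease that processes the PMEL protein (0.978), and Pax3 (0.977), Ednrb (0.977), Mc1r (0.976), Gpnmb (0.975), Cpne4 (0.973), Syt4 (0.964) and E330034G19Rik (0.963). Ptgds was at 2232 and 2352 CPM in melanocyte-like cells, with 96.9% and 95.3% of its UMIs in them. Npy was at 678 and 810 CPM, with 97.3% and 94.4%. Pax3, Ednrb, Gpnmb and Syt4 had served as naming markers. The sums of a mouse share its library and free RNA, so the correlation is given without a test.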

How the data were processed

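Epidermal cells of 2 Chrm3 KO mice were captured with the 10x Genomics system (the labels name chemistry v1 and the study's methods v3.1) and the deposited UMI counts per gene and barcode were made by the authors with Cell Ranger 3.0.2 on mm10. The cells kept had 900 to 7700 genes and less than 10% of their UMIs from mitochondrial genes, as in the study's methods, and no deposited column was left unused (0 unused). Cells were integrated and clustered with Seurat 5.3.0 in R 4.3.3 (CCA, 2000 variable genes without the 10 genes described, 30 dimensions, Louvain resolution 0.8). A cluster was named after the fixed marker list with the most genes among its 10 top genes. At least 3 markers of that list had to reach a log2 enrichment of 0.5, but the list as a whole did not. Some hair follicle-like clusters had a mean log2 enrichment of -0.30, -0.26 and -0.09 for their list. They held 2222, 1116 and 566 cells, most of the 5540 hair follicle-like KCs, and each had 1 marker of the list among its top genes. CPM are UMIs of a gene per 1000000 UMIs of the summed cells. Doublets were called with Scrublet in scanpy 1.11.5 (expected rate 0.08) and kept unless stated. Cells are not replicates, so sums per mouse were tested with edgeR 4.0.16 (quasi-likelihood, TMM, filterByExpr, 3 residual degrees of freedom), with DESeq2 1.42.0 as an alternative. The script was tested on simulated data.

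The replicate number names the mouse, so sums of the same number share an animal, and their deviations from the group means correlated at 0.0509 to 0.184 over 7911 genes for the phases and at 0.385 to 0.501 over 7635 genes for KC classes. With 2 mice, p-values rest on 6 sums per fit. Other genes were named if they were among the 10 most similar or belonged to a list of pathway genes and passed a test or the 2-fold rule, with a few added after their values were seen. The 10 genes and all lists were chosen with earlier results of these data known. Alternatives were another normalization, another tool, no filter, the mouse as a block, doublets removed, stricter or no cell limits, other clustering settings and each mouse alone. WT samples were not analysed here. The result of 1 marker gene is not reported here.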

Additional observations from a re-analysis of the deposited data

Results flagged for a closer look

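The barcodes outside the quality limits, 3209 in mouse 1 and 3986 in mouse 2, enter no comparison above. The 10 genes made up 217 of every 1000000 UMIs in those of mouse 1 and 199 in those of mouse 2, against 19.1 and 31.7 in kept cells outside the melanocyte-like clusters. The removed barcodes were not split by cell type, whereas that reference leaves out the melanocyte-like cells. All kept cells together held 48373 of 95048258 and 96253 of 148843409 UMIs in these genes, a larger share than in the removed barcodes. Removed barcodes with fewer than 900 genes had 535 and 624 per 1000000 UMIs, those with 10% or more mitochondrial UMIs 241 and 220, and those with more than 7700 genes 67.2 and 41.1. Among the removed barcodes the level was thus highest in the shallow ones of both mice. Of the removed barcodes 118 and 146 (3.68% and 3.66%) reached 2250 CPM of the 10 genes, the level set for melanocyte-like cells. Among those with fewer than 900 genes the shares were 5.59% and 5.98%. A shallow barcode can reach that level on few UMIs. Melanocyte-like cells made up 5.74% and 6.1% of the kept cells. How far such barcodes account for these counts was not tested.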

How the results depend on the processing

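Across the alternatives, 259 of the log2 fold changes of single genes kept direction and, where tested, side of the threshold. Another 43 no longer passed, 13 newly passed and 21 turned. Values of each mouse alone had no test and were compared by direction only. Leaving out the pigment-high cluster turned Tyrp1 (0.21), Pmel (0.02) and Slc45a2 (0.01) in S and Tyrp1 (0.20) and Oca2 (0.80) in G2/M. With keratin-bearing cells left out as well, Tyrp1 (0.33), Pmel (0.10) and Slc45a2 (0.05) turned in S and Tyrp1 (0.32), Pmel (0.14), Oca2 (0.33) and Slc45a2 (0.02) in G2/M. Both choices were made after seeing the data. In hair follicle-like KCs, Tyr turned under DESeq2 (0.05) and in mouse 1 alone (2.60), and Mlana turned with no filter (0.02), with the mouse as a block (0.04) and in each mouse alone (0.11 to 0.30). In suprabasal KCs, Dct (-0.15), Pmel (-0.31) and Mlana (-0.37) turned without KCs of 10 or more pigment UMIs, also chosen after seeing the data. Apart from what the alternatives' own construction shows, the cause was not tested.

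The number of the 10 genes called in S was 7 and became 2 without the pigment-high cluster, with or without keratin-bearing cells. In G2/M 7 became 3 under DESeq2, 5 with doublets removed, 4 without keratin-bearing cells, 3 without the pigment-high cluster and 1 without both. DESeq2 called 421 of all genes in S and 607 in G2/M, against 919 and 1341 by edgeR. In hair follicle-like KCs 1 became 3 with no filter and 2 with the replicate block. In suprabasal KCs 7 became 4 under DESeq2, 2 with doublets removed, 1 without the cornified cluster and 0 without high-pigment KCs. With the replicate block 9 of the 10 genes were called in S and 9 in G2/M, and 7 in suprabasal KCs.

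The share of the 10 genes' UMIs in melanocyte-like cells over both mice was 95.9%. It became 93.9% under 5% mitochondrial UMIs, 91.2% over all deposited barcodes and 97.2% without high-pigment cells of other classes, and was 95.4% to 96.4% with a single mouse. Within a single mouse the median log2 ratio of the genes was -0.62 to -0.33 in S, -0.49 to -0.47 in G2/M, 0.49 to 1.75 in hair follicle-like KCs and 1.65 to 1.87 in suprabasal KCs. Levels in melanocyte-like cells moved by a factor of 0.674 to 1.19 under the stricter mitochondrial limit and 1.11 to 1.16 with doublets removed. Oca2, Tyrp1 and all genes outside melanocyte-like cells rested on few UMIs, and 2 mice set the precision of each test.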
